A study of Mus musculus with 17 samples.

Results

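The genes of the mitochondrial ribosomal proteins were followed in mouse neural retinal progenitor cells (mNRPCs), which were grown on Matrigel from the dissociated neural retina of adult C57BL/6 mice of 8 to 10 weeks. The members were all genes whose symbol begins with Mrpl or Mrps followed by a number, and 77 of the 18836 genes listed in at least 1 library met this rule. By symbol, 48 belonged to the large subunit (Mrpl) and 29 to the small subunit (Mrps). All 77 were listed in every library, and all 77 passed the filter on low values, a mean FPKM of at least 1, as did 11258 genes in the series. FPKM is the number of fragments per kilobase of transcript, scaled to the mapped fragments of the library.

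Poly-A RNA was sequenced in 17 libraries: 1 library of day 0, and 1 library each of cells in basic medium (BM), with bFGF (B), with CHIR99021 (C) and with both (BC), on days 1, 3, 5 and 7. bFGF is a fibroblast growth factor that signals through receptor tyrosine kinases, and CHIR99021 inhibits GSK3 and thereby activates Wnt/β-catenin signaling. The cells had been isolated and expanded in medium holding both factors, and the labels name no genetic change and give no number of animals. The labels name no treatment for day 0, nor for BM, and the study's text describes day 0 both as cells in BM and as cells before treatment, so whether these cells had last been in BM or in the expansion medium cannot be told. No treatment was repeated on any day, so each error below is the spread left by a model of additive effects and not the spread between cultures.

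Mitochondria carry their own ribosome, which translates the few mRNAs of the mitochondrial genome into core subunits of the respiratory chain and the ATP synthase. Its rRNAs come from mitochondrial DNA, whereas every one of its proteins is encoded in the nucleus, made in the cytosol and imported. Some of these proteins have bacterial counterparts and others are found only in mitochondria. Neural progenitors are known for a largely glycolytic metabolism, and neuronal differentiation for a shift toward oxidative phosphorylation.

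The libraries were of even depth, with 17571973 to 19428744 expected counts, but not of even composition. The median gene had an FPKM of 12.2 on day 0, 13.4 to 14.1 in the 8 cultured libraries without bFGF and 8.85 to 9.67 in the 4 libraries with bFGF on days 5 and 7, where the 10 highest genes took 7.45% to 7.68% of the counts. Each level is therefore given as deposited and after each library was scaled to its median gene. Among the progenitor markers, Pax6 was listed at 10.7 to 207 FPKM, whereas Rax, which helps to define retinal progenitors, did not exceed 0.07 FPKM in any library. The summed FPKM of 5 lens markers was 0.28 on day 0, 0.05 to 0.64 with bFGF and 1.16 to 432 without it, with Crygs at 383 in C on day 7 and Cryaa, a defining lens gene, at no more than 0.64. The summed FPKM of 5 fibroblast markers was 172 on day 0, 62.9 to 155 with bFGF and 144 to 409 without it, and Col3a1 alone gave 171 of the 172 on day 0, when each of the other 4 was at no more than 0.43. All 6 photoreceptor markers together did not exceed 1.17 FPKM. The part of these markers in the results below was not tested, and in bulk RNA fewer cells of a type and less RNA per cell cannot be told apart.

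Most mitochondrial ribosomal protein genes had a higher level on day 0 than in any of the 4 media on day 3. Their median was 42.3 FPKM on day 0. The day 1 medians were 34.5 in BM, 34.7 in C, 37.5 in BC and 36.4 in B. The day 3 medians were 22.4 in BM, 21.7 in C, 22.0 in BC and 23.7 in B, so that the 4 media lay close together. As deposited, the medians of day 7 were also close, at 23.3 in BM, 23.9 in C, 22.9 in BC and 22.4 in B. After scaling to the median gene the day 7 medians were further apart and in the other order, with 22.3 in BM and 23.1 in C against 34.7 in BC and 32.3 in B, and day 0 was at 46.8.

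**Figure D1:**
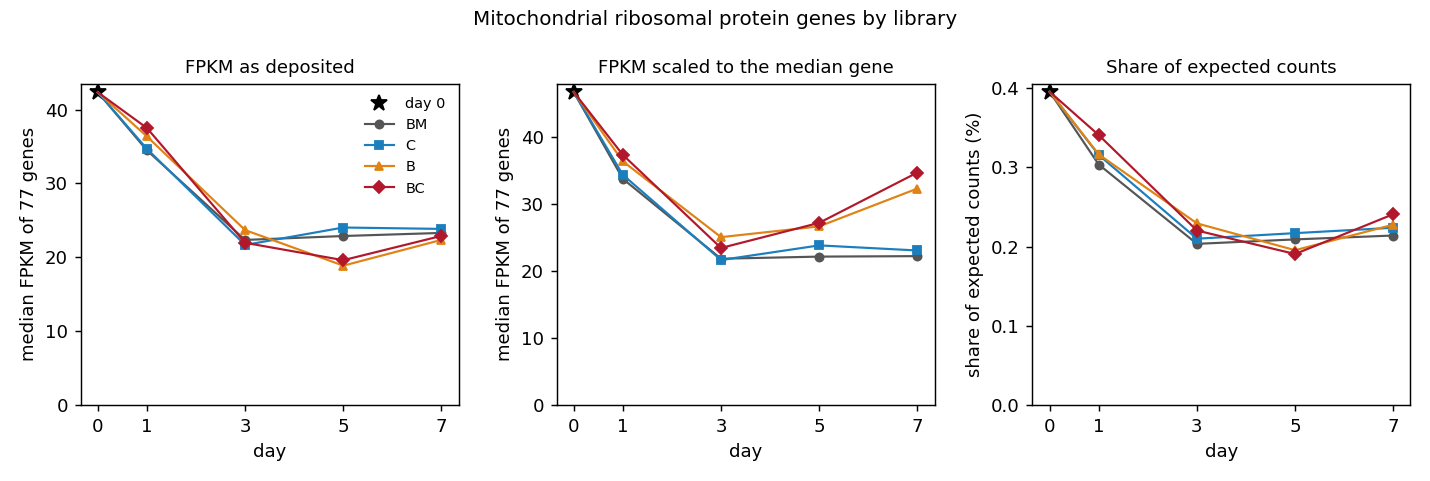
Median FPKM of the 77 genes as deposited (left) and after scaling each library to its median gene (middle), and their share of all expected counts in percent (right), against the day of culture. Each point is 1 library and the star is the day 0 library. The level of 42.3 FPKM on day 0 stands above the 21.7 to 23.7 FPKM of day 3 in all media, and on day 7 the medians of B and BC lie below those of BM and C as deposited and above them after scaling, while their shares of 0.228% and 0.241% lie above 0.214% and 0.224%.

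The share of all expected counts taken by the 77 genes was 0.395% on day 0. The shares of day 7 were 0.214% for BM, 0.224% for C, 0.228% for B and 0.241% for BC. In 8 library pairs matched for day and CHIR99021, the log2 ratio of the share was 0.04 ± 0.12 (SD, n = 8), with 6 of 8 pairs higher with bFGF. The difference was smaller than the spread between pairs. Of the summed FPKM the same genes took less with bFGF, with a log2 ratio of -0.14 ± 0.18 (SD, n = 8) and 3 of 8 pairs higher.

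Against day 0, 34 of the 77 genes were at least 1.5-fold lower in all 12 libraries of days 3, 5 and 7, on the log2(FPKM + 1) scale and as deposited. This was true of 11.5% of the 11258 genes that passed the filter. After scaling the count was 29 of 77, against 10.1% of all genes. No mitochondrial ribosomal protein gene was 1.5-fold higher than day 0 in all 12 libraries on either scale, against 9.23% of all genes as deposited and 10.8% after scaling. With a single day 0 library this difference has no replicate check and no test was made.

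Mrpl12, whose product forms the stalk of the large subunit and binds the mitochondrial RNA polymerase, showed the highest level of any member on day 0, at 169 FPKM. It was at 82.6 in BM, 92.5 in C, 115 in BC and 104 in B on day 1, and at 36.7 in BM, 39.1 in C, 35.5 in BC and 31.0 in B on day 7. It was lower than day 0 in all 16 later libraries. Mrpl24, a conserved protein of the large subunit, went the other way, from 60.6 on day 0 to 73.8 in BM, 73.3 in C, 84.5 in BC and 82.1 in B on day 7. As deposited, 3 members were above day 0 in both BM and C on day 7 (Mrpl24, Mrpl34 and Mrpl36), and 8 were above it in both B and BC (Mrpl13, Mrpl24, Mrpl27, Mrpl30, Mrpl34, Mrpl45, Mrps33 and Mrps36), against 54.8% and 35.0% of the genes that passed the filter. After scaling the counts were 1 and 24, against 47.4% and 48.0%.

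**Figure D2:**
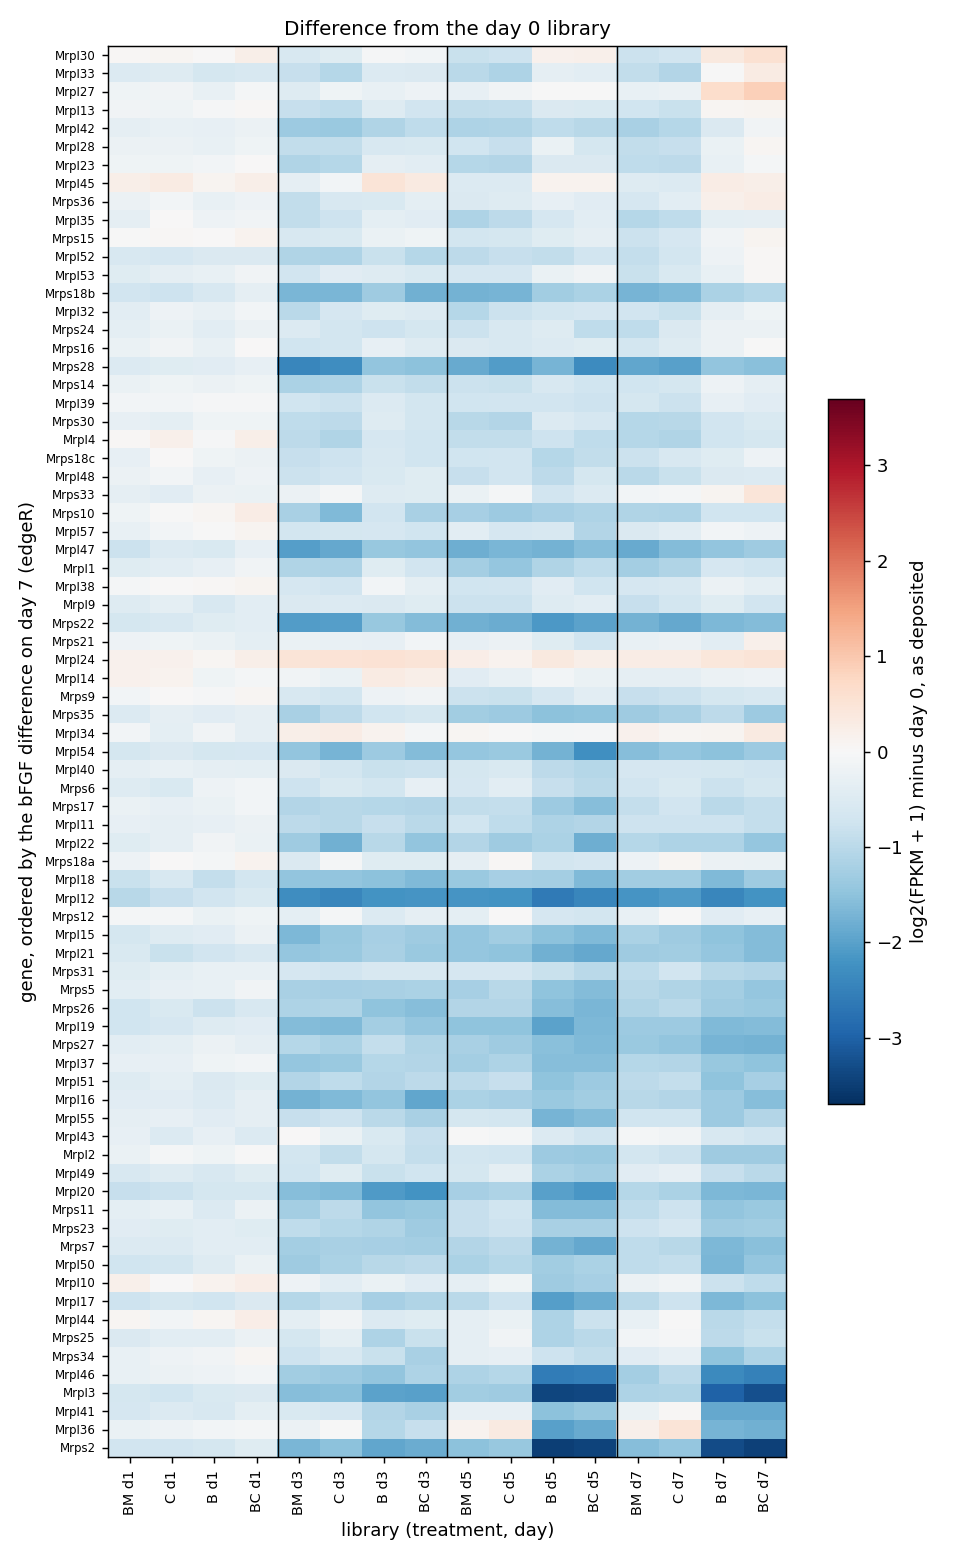
Difference of log2(FPKM + 1) from the day 0 library, as deposited, for the 77 genes (rows, ordered by their bFGF difference on day 7) in the 16 cultured libraries (columns, by day and medium). Blue is lower and red is higher than day 0. Mrpl12 is blue in every column from day 3, Mrpl24 stays red, and Mrps2, Mrpl3, Mrpl36 and Mrpl41 at the bottom are darkest in B and BC of days 5 and 7.

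The effect of bFGF was then tested over days 1 to 7 with the day and CHIR99021 as further terms. Most mitochondrial ribosomal protein genes were higher with bFGF relative to the typical gene, whereas without scaling nearly as many were lower as higher. With edgeR's quasi-likelihood test, which sets each library against its TMM factor, 45 of the 77 genes were higher with bFGF and 6 were lower at an adjusted p below 0.05, while 26 passed in neither direction. Of all 11272 genes tested, 34.6% were higher and 33.9% were lower. The median log2 difference of the members was 0.29, against -0.00 for all genes tested. By subunit, 29 of 48 Mrpl genes were higher and 4 lower, and 16 of 29 Mrps genes were higher and 2 lower.

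These counts depended on the scale. When log2(FPKM + 1) was tested with limma without scaling, 25 of the 77 genes were higher with bFGF and 22 lower, with a median of -0.00, against 20.3% of all genes higher and 50.4% lower with a median of -0.25. The calls made by both methods were 25 higher and 6 lower, against 20.3% and 33.8% of all genes, and 0 members were called higher by edgeR and lower by limma, against 0.0177%. With BM and B alone no member passed (edgeR, 8 libraries), against 1.41% of all genes higher and 2.29% lower, and 27 members were at an unadjusted p below 0.05, against 43.2% of all genes. With C and BC alone no member passed either, against 0.0266% higher and 0.106% lower, and 20 members were at an unadjusted p below 0.05, against 35.4% of all genes. The members' transcripts were also short, with a median length of 1057 bases against 2818 for all genes tested. Among the 2061 genes of at most 1531 bases, 48.5% were higher and 19.0% were lower with bFGF, beside 32 higher and 2 lower of the 58 members in that range. The median log2 difference was 0.28 for those short genes and 0.33 for those members.

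The number of members called differed by day. On day 1, 3 of 77 were higher with bFGF and 0 lower, against 6.21% and 4.46% of all genes. The 3 were Mrpl12, Mrpl50 and Mrps6, with log2 differences of 0.40, 0.44 and 0.46 (edgeR). On day 3, 33 were higher and 7 lower, against 25.4% and 25.0% of all genes. On day 5, 32 were higher and 13 lower, against 37.2% and 38.6%. On day 7, 51 were higher and 9 lower, against 38.8% and 39.6%, and the median log2 difference of the members was 0.61. The day 7 effect itself was tested against the day 1 effect, and this contrast was higher for 39 members and lower for 10, against 31.3% and 34.1% of all genes. Among the genes of at most 1531 bases, 60.1% were higher and 18.8% lower on day 7, beside 42 and 5 of the 58 members in that range. For day 7 against day 1 the shares of those short genes were 52.7% and 13.4%, beside 32 and 5 of the 58 members, so in this contrast the share of higher members was near the background of short genes. Without scaling, limma called 31 members higher and 28 lower on day 7, against 22.1% and 58.5% of all genes, and 31 higher and 9 lower members were called by both methods, against 22.1% and 39.5%. The methods disagreed in sign for 2 members, against 1.99% of all genes: Mrpl15 was at 0.31 by edgeR (adjusted p = 0.0186) and -0.31 by limma (adjusted p = 0.0308), and Mrps5 at 0.26 (adjusted p = 0.0330) and -0.27 (adjusted p = 0.0234). The day 1 count was 0 when any 1 of the day 1 libraries was left out and 9 without BC of day 3, and the day 3 count of higher members was 21 without B or without C of day 3.

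**Figure D3:**
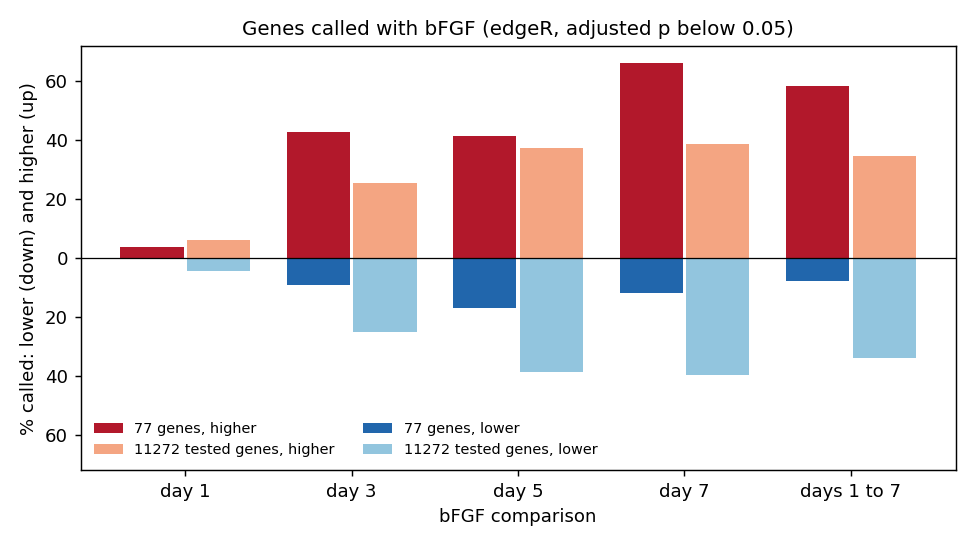
Percentage of genes called higher (up) or lower (down) with bFGF by edgeR at an adjusted p below 0.05, for the 77 mitochondrial ribosomal protein genes (dark bars) and for all 11272 genes tested (light bars), on each day and over days 1 to 7. On day 7, 51 of 77 members were higher and 9 were lower, against 38.8% and 39.6% of all genes.

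The 5 members with the largest positive difference with bFGF over days 1 to 7 all belonged to the large subunit, as did 48 of all 77. On day 7 the median log2 difference was 0.55 for the large and 0.67 for the small subunit (edgeR). Mrpl30, which has a bacterial counterpart, was at 79.7 FPKM on day 0. On day 1 it was at 82.2 in BM, 83.6 in C, 92.4 in BC and 79.8 in B, and on day 3 at 52.7 in BM, 58.2 in C, 74.7 in BC and 76.7 in B. On day 7 it was at 45.5 in BM and 48.6 in C, against 119 in BC and 103 in B. The groups with and without bFGF did not overlap from day 3 on. The log2 difference was 0.12 ± 0.09 (SE) on day 1 and 1.73 ± 0.10 on day 7, with an adjusted p of 1.55e-08 (edgeR) on day 7. The unscaled difference on day 7 was 1.22.

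Mrpl33, one of the smallest proteins of the large subunit, was at 106 FPKM on day 0 and also separated by medium. On day 7 it was at 55.9 in BM and 50.03 in C, against 132 in BC and 106 in B. Its log2 difference was -0.06 ± 0.13 on day 1 and 1.71 ± 0.13 on day 7 (adjusted p = 1.30e-07, edgeR). In the reference annotation 22.4% of its exonic bases are shared with another gene, and reads of both cannot be told apart there. Mrpl27 is the counterpart of a bacterial protein that reaches toward the peptidyl transferase center. As deposited it was at 28.5 to 40.1 FPKM in every library up to day 5 and at 32.9 in BM, 34.7 in C, 75.02 in BC and 63.8 in B on day 7. After scaling it was already apart on day 5, at 31.0 in BM, 36.05 in C, 55.4 in BC and 56.5 in B. Its log2 difference rose from 0.06 ± 0.11 on day 1 to 1.498 ± 0.106 on day 7, and the change between those days was 1.43 ± 0.15 (adjusted p = 6.30e-06, edgeR).

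Mrpl23, which lines the rim of the exit tunnel through which new proteins leave, was higher with bFGF in 8 of 8 pairs as deposited. On day 3 it was at 35.1 in BM, 36.8 in C, 58.5 in BC and 61.0 in B, and on day 7 at 39.7 in BM, 39.2 in C, 73.8 in BC and 64.0 in B. As deposited, from day 3 on the values with bFGF were below the 77.5 FPKM of day 0, and the values without bFGF were lower again. After scaling, day 0 was at 85.55, and on day 7 BC and B were above it at 112 and 92.5, while BM and C were at 37.87 and 37.93. The log2 difference over days 1 to 7 was 0.83 ± 0.13 (adjusted p = 0.000295, edgeR). Mrpl45, which helps to hold the ribosome at the inner membrane, differed by 0.78 ± 0.15 and Mrpl35 by 0.77 ± 0.14 over days 1 to 7. On day 7, Mrpl45 was at 27.5 in BM, 26.9 in C, 45.1 in BC and 47.5 in B. Mrpl35, a low member, was at 5.80 in BM, 6.34 in C, 10.3 in BC and 10.03 in B.

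In total, 18 members were called and over 2-fold higher on day 7, against 17.8% of all genes tested. Of the 18, 12 were Mrpl genes, as were 48 of the 77 members. All 18 were also called higher by limma without scaling, where 3 of them (Mrpl27, Mrpl30 and Mrpl33) exceeded 2-fold. Mrps36, now described as a part of the 2-oxoglutarate dehydrogenase complex and not of the ribosome, was among the 18, at 34.5 in BM, 40.5 in C, 64.9 in BC and 60.6 in B on day 7. Mrpl13, at 57.6 in BM, 54.3 in C, 105 in BC and 102 in B, was close to its day 0 level of 97.5 with bFGF as deposited. After scaling it was at 160 in BC and 148 in B, above the 108 of day 0. In the other direction 4 members were called and over 2-fold lower, against 20.8% of all genes. They were Mrps2, Mrpl3, Mrpl36 and Mrpl41.

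Mrps2, a conserved protein of the small subunit, was at 31.5 FPKM on day 0 and lower in every later library. On day 3 it was at 9.01 in BM, 10.5 in C, 8.02 in BC and 7.61 in B. On day 5 it was at 10.2 in BM and 11.4 in C, against 2.05 in BC and 1.88 in B, and on day 7 at 9.90 in BM and 10.99 in C, against 1.95 in BC and 2.28 in B. On day 5 these were the lowest values of any member in the bFGF libraries. The log2 difference was 0.28 ± 0.10 (SE, day 1 adjusted p = 0.0958, edgeR) and then -1.77 ± 0.12 on day 7 (adjusted p = 6.54e-08, edgeR). The change of the effect from day 1 to day 7, -2.04 ± 0.16, was the lowest among the members.

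Mrpl3, a conserved protein of the large subunit core, was at 74.6 FPKM on day 0, well above the median member. On day 3 it was at 24.4 in BM, 25.0 in C, 17.8 in BC and 18.3 in B. On day 7 it was at 33.4 in BM and 34.3 in C, against 7.01 in BC and 8.56 in B. Its log2 difference on day 7 was -1.58 ± 0.09 (adjusted p = 2.05e-08, edgeR), and -1.99 without scaling.

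Mrpl36 and Mrpl41 differed from Mrps2 and Mrpl3 in the libraries without bFGF. Mrpl36, a small zinc-binding protein of the large subunit, was at 16.9 FPKM on day 0, and on day 7 at 19.5 in BM and 23.7 in C, against 4.28 in BC and 4.48 in B. As deposited it was therefore above day 0 without bFGF and far below it with bFGF, whereas after scaling BM was level with day 0. The log2 difference was 0.23 ± 0.12 on day 1, -0.83 ± 0.12 on day 3, -1.99 ± 0.14 on day 5 and -1.76 ± 0.13 on day 7. Mrpl41, found only in mitochondrial ribosomes, was at 10.2 FPKM on day 0 and on day 7 at 8.44 in BM and 10.5 in C, against 2.01 in BC and 1.99 in B. Its log2 difference on day 7 was -1.70 ± 0.14 (adjusted p = 3.05e-07, edgeR). For these 4 genes the values with and without bFGF did not overlap on days 3, 5 and 7, and all were lower over days 1 to 7 under each of the scalings that were run.

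Mrpl46, another protein of the large subunit, was lower on day 7, at 9.98 in BM, 12.4 in C, 3.60 in BC and 4.18 in B, with a log2 difference of -0.97 ± 0.14 (adjusted p = 4.88e-05, edgeR). Over days 1 to 7 its difference of -0.46 ± 0.20 missed the threshold (adjusted p = 0.0539, edgeR). The other 4 members lower on day 7, Mrpl17, Mrpl44, Mrps25 and Mrps34, had log2 differences between -0.30 and -0.46. As deposited, all 9 were below day 0 in both bFGF libraries of day 7. This count does not set the 9 apart, since they were picked for lower values with bFGF on that day. Among all 77 members only 8 were above day 0 in both of those libraries, against 35% of the genes that passed the filter.

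**Figure D4:**
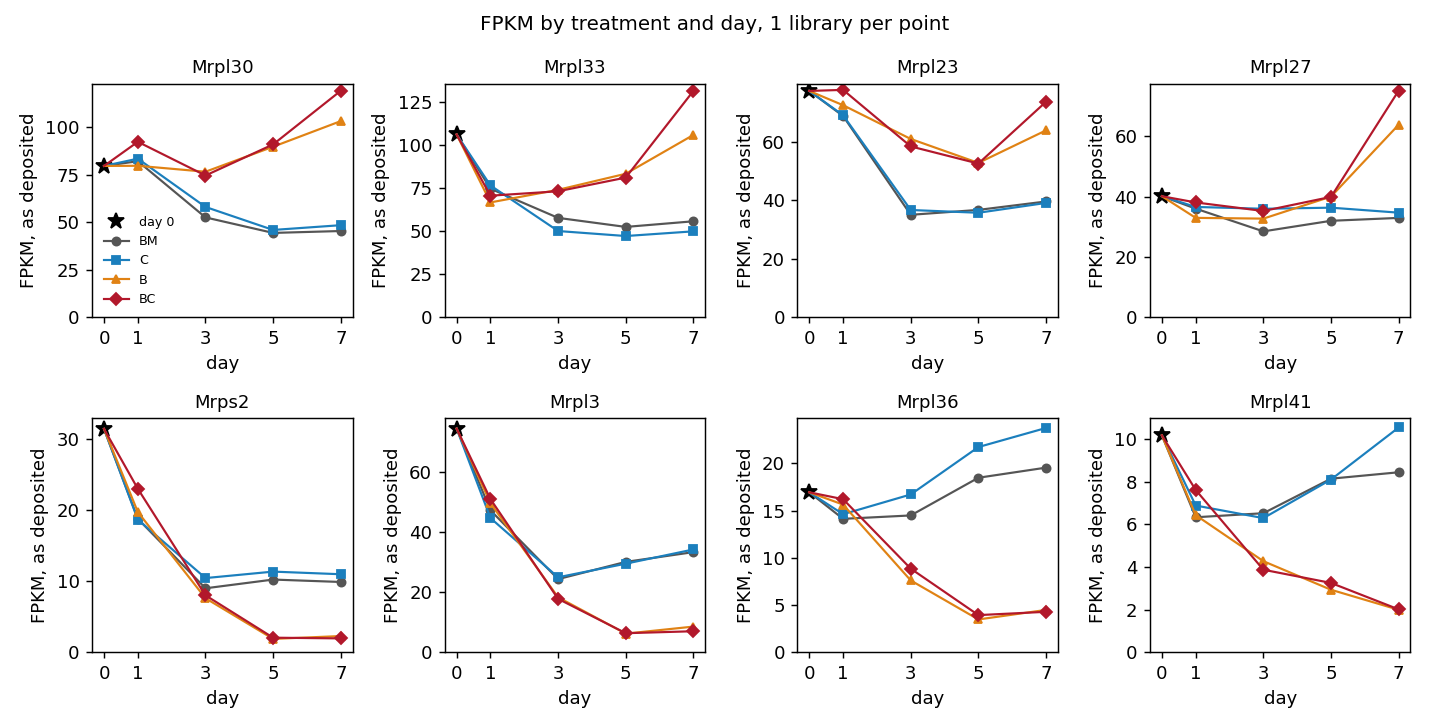
FPKM as deposited against the day of culture for 4 members that were higher with bFGF (top) and the 4 members called and over 2-fold lower on day 7 (bottom). Each point is 1 library and the star is day 0. On day 7 Mrpl30 is at 119 in BC and 103 in B over 45.5 in BM and 48.6 in C, and Mrps2 is at 1.95 in BC and 2.28 in B under 9.90 in BM and 10.99 in C.

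As deposited, 34 members had higher values in both B and BC than in BM and C on day 7, and 36 had lower values in both, against 24.8% and 62.2% of all genes. After scaling to the median gene the counts were 57 higher and 9 lower, against 45.6% and 40.3%. The sign thus turned with the scaling for members near the middle of the order, such as Mrps18a, which was at 35.3 in BM, 42.6 in C, 34.5 in BC and 34.6 in B on day 7, and after scaling at 33.7, 41.3, 52.3 and 49.99 in that order.

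**Figure D5:**
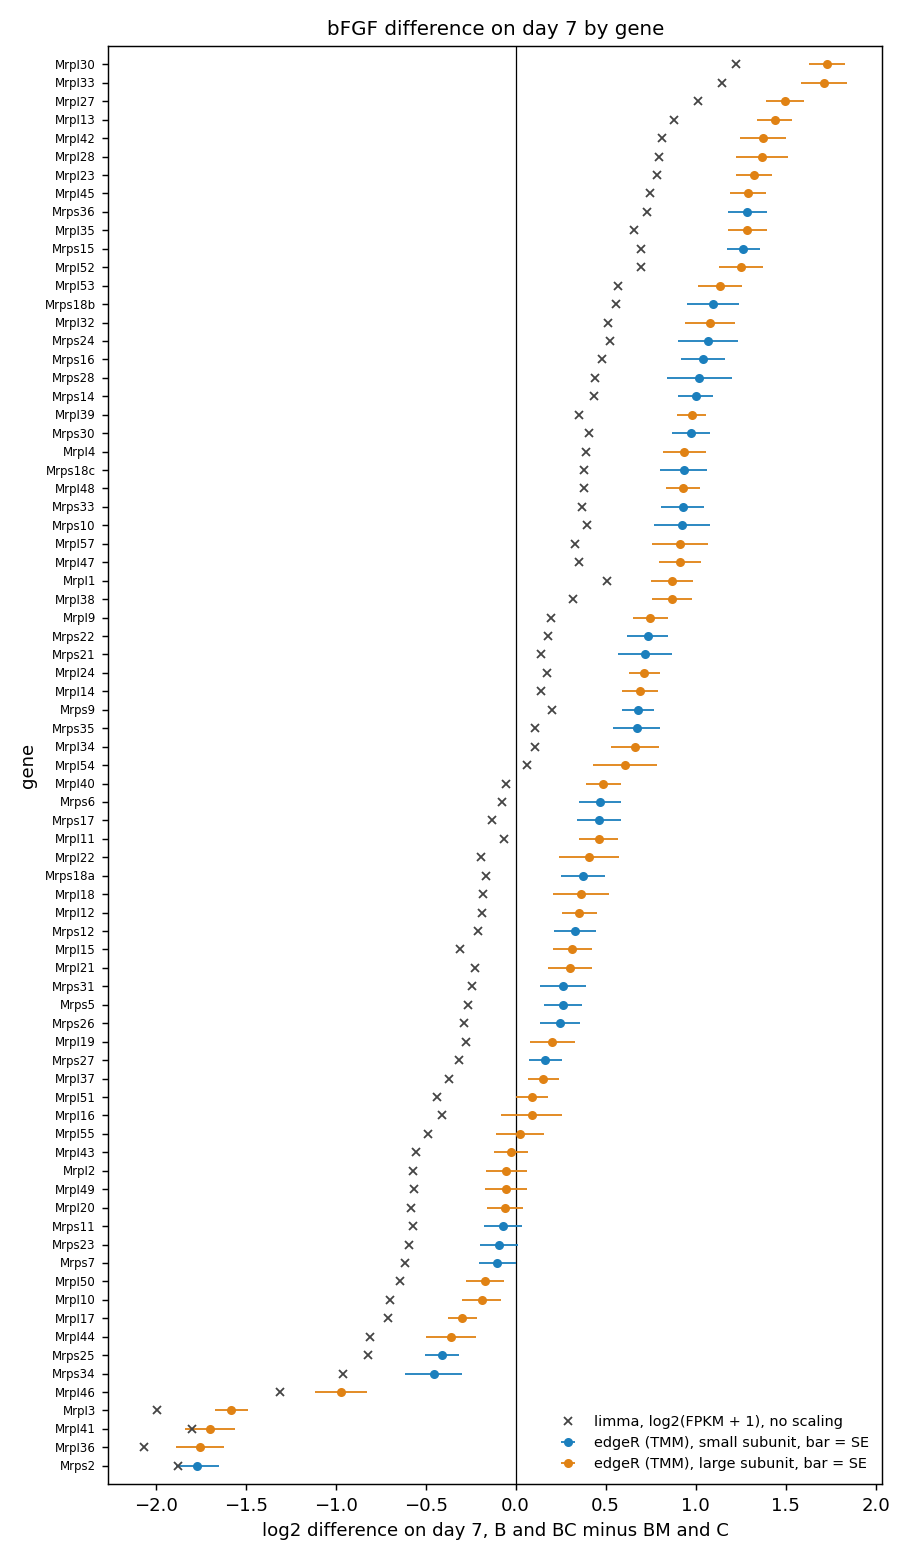
log2 difference on day 7 for B and BC minus BM and C, for each of the 77 genes from edgeR with TMM factors (circles, bars are the SE) and from limma on log2(FPKM + 1) without scaling (crosses). The crosses lie to the left of the circles for each of the 77 genes, Mrpl30 is highest on both scales, and the lowest is Mrps2 by edgeR (-1.77) and Mrpl36 by limma (-2.07).

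The 3 Mrps18 genes are paralogs of a single bacterial ribosomal protein, and the product of Mrps18a sits in the large subunit despite its name. Over days 1 to 7, Mrps18b was higher with bFGF by 0.68 ± 0.13 (adjusted p = 0.000747) and Mrps18c by 0.35 ± 0.12 (adjusted p = 0.0213), while Mrps18a, at 0.11 ± 0.09, did not pass (adjusted p = 0.268, edgeR in each case). The differences between the paralogs were not tested. Mrps18b was at 88.0 FPKM on day 0, and on day 7 at 26.0 in BM, 27.8 in C, 41.5 in BC and 38.6 in B, all under its day 0 value. Of its exonic bases 59.1% are shared with another gene, as are 18.5% of those of Mrps18c. Across all members, 16 share at least 10% of their exonic bases with another gene. Besides those above, the ones described here were Mrps25 (58.2%), Mrpl19 (39.2%), Mrpl24 (38.2%), Mrps6 (36.1%), Mrpl13 (27.0%), Mrpl47 (18.1%) and Mrpl12 (15.2%), whose values may hold reads of the other gene.

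CHIR99021 left these genes without a detectable difference in a model with a single bFGF effect for all days. Neither direction had a member past the threshold (0 of 77 by edgeR and 0 by DESeq2), against 0.0532% of all genes higher and 0.284% lower by edgeR. In edgeR, 4 members were at an unadjusted p below 0.05, against 1126 of the 11272 genes tested. The median log2 difference was 0.04. The interaction of bFGF and CHIR99021 was called for 0 members by edgeR and by DESeq2, against 0.00887% of all genes higher and 0.0% lower by edgeR. For this term 0 members reached an unadjusted p below 0.05 in edgeR, against 178 of the 11272 genes tested. The SE of the CHIR99021 difference on the log2 scale had a median of 0.11 over the members and a range from 0.06 to 0.27, and differences within these errors could not be seen. A bFGF effect that changes with the day adds to these errors, since the model holds no such change. The CHIR99021 term was not tested in the model with a bFGF term per day.

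The levels of the members covered a wide range on a per-length scale. The highest means over the 17 libraries were those of Mrps21 at 97.0 FPKM, Mrpl52 at 76.9, Mrpl24 at 75.04 and Mrpl30 at 74.6, and the last 3 lay close together. The lowest were Mrpl19 at 5.67, Mrpl41 at 6.10, Mrps25 at 6.51 and Mrpl17 at 6.79. Mrps21, the most abundant, was at 115 on day 0 and on day 7 at 95.1 in BM, 98.8 in C, 131 in BC and 87.3 in B, so that the values with and without bFGF overlapped as deposited. After scaling it was at 90.8 in BM, 95.7 in C, 198 in BC and 126 in B and the values did not overlap, with a log2 difference on day 7 of 0.72 ± 0.15 (adjusted p = 0.000870, edgeR). Mrpl52 was at 120 on day 0 and on day 7 at 65.2 in BM, 74.5 in C, 124 in BC and 104 in B.

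Most members followed the median profile of the 77 genes over the 17 libraries. Each member is part of this profile, and how many other genes follow it was not tested. After scaling to the median gene, Pearson's r of a member's log2(FPKM + 1) with the median profile of all 77, a description across libraries that share treatments and days, had a median of 0.80 and a range from -0.09 to 0.98. For 19 members r was above 0.9, with Mrpl47 and Mrpl11, each at 0.98, the most alike. For 13 members r was below 0.5. The least alike were Mrpl24 at -0.09, Mrpl36 at -0.09 and Mrpl34 at -0.08. Mrpl34, which resembles a very small bacterial protein, ranged only from 30.9 to 51.3 FPKM as deposited and was at 40.3 on day 0. After scaling it ranged from 30.6 to 77.8 and was at 44.56 on day 0.

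The promoters of the members were compared with those of all genes for letters bound by factors known to act on nuclear genes of mitochondria. RefSeq windows (GRCm38.p6), from 250 bases before to 50 bases after the start, were matched for 68 of the 77 members. The ETS motif CCGGAAG, bound by GABP among others, was found on either strand in 25 of 68 members (36.8%), in 21.6% of the 9068 tested genes with a window and in 9.93% of all 27025 genes with one. The YY1 motif AAGATGGCG was found in 8 of 68 (11.8%), in 3.86% of tested genes and in 1.64% of all genes. The NRF1 core GCATGCG was found in 8 of 68 (11.8%) against 7.55% and 4.01%, and the longer palindromic NRF1 motif that contains it in 3 of 68 (4.41%) against 2.45% and 1.07%. The Myc motif CACGTG was found in 5 of 68 (7.35%) against 11.9% and 8.09%. A match is a description of the letters and not a binding site.

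The ETS motif was present in 18 of the 44 members with a window that were higher with bFGF on day 7 (40.9%) and in 2 of the 8 that were lower (25.0%), and YY1 letters in 4 and 1 of them. Shown are the 250 bases before the start for the 2 higher members with the largest day 7 difference and the 2 lower members with the most negative one among those whose window holds ETS or YY1 letters. They lie at chr11:94653541-94653790, chr14:54426659-54426908, chr13:73330759-73331008 and chr9:105053018-105053267, all on the plus strand. Capitals mark the ETS motif or its reverse complement in Mrpl27, Mrpl52 and Mrpl3, and CACGTG followed by the reverse complement of the YY1 motif in Mrpl36.
Mrpl27: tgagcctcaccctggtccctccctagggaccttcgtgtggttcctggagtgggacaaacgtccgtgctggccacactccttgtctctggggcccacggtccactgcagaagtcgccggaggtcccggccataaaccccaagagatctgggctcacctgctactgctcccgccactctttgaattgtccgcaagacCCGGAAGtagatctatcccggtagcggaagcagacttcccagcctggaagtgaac
Mrpl52: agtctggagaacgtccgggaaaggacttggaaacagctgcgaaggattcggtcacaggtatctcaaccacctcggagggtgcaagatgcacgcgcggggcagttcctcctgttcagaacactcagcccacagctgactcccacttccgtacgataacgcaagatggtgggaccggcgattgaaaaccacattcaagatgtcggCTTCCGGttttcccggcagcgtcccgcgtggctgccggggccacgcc
Mrpl36: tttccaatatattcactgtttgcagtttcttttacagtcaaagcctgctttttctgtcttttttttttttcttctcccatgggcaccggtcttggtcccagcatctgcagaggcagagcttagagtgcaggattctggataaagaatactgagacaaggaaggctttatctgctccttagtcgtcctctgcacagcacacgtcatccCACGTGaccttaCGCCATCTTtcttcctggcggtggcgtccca
Mrpl3: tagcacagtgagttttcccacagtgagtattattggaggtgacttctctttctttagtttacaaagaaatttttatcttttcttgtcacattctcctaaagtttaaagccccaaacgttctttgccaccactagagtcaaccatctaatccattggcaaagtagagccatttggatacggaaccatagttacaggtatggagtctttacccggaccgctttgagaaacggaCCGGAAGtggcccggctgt
On day 7 Mrpl27 was at 75.02 in BC and 63.8 in B, and Mrpl3 at 7.01 in BC and 8.56 in B. The windows were chosen by their letters and by direction, and a relation of the 2 was not tested.

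Related lists were read from the same edgeR fit, in which 34.6% of all genes tested were higher and 33.9% lower. Of 6 further proteins of the mitochondrial ribosome whose symbols lie outside the rule, 3 were higher and 0 lower over days 1 to 7, with a median of 0.33. Without scaling (limma), 3 of the 6 were higher and 1 was lower, against 20.3% and 50.4% of all genes. Their median length was 1351 bases. The highest of them, Chchd1, was at 61.9 FPKM on day 0 and on day 7 at 30.8 in BM, 28.9 in C, 49.6 in BC and 38.2 in B, and the lowest, Ptcd3, differed by -0.12 ± 0.10. Of 17 translation factors, 4 were higher and 7 lower with a median of -0.10, from Guf1 at 0.59 ± 0.09 to Pdf, the peptide deformylase, at -1.53 ± 0.37. Of 26 assembly and rRNA-modifying factors, 7 were higher and 8 lower with a median of -0.09, from Grsf1, an RNA granule protein, at 0.90 ± 0.15 to the rRNA methyltransferase Mrm2 at -1.48 ± 0.38.

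Of 20 mitochondrial aminoacyl-tRNA synthetases and related enzymes, 3 were higher and 9 lower with a median of -0.27, from Yars2 at 0.46 ± 0.10 to Pars2 at -1.46 ± 0.46. Pars2 was at 2.37 in BM, 3.48 in C, 0.20 in BC and 0.32 in B on day 7. Of 10 genes of mitochondrial transcription and replication, 1 was higher and 6 were lower with a median of -0.33, from Polg2 at 0.48 ± 0.14 to the elongation factor Tefm at -1.40 ± 0.53. Without scaling (limma), 2 translation factors were higher and 10 lower, and 2 and 15 of the assembly factors. The counts were 0 and 14 for the synthetases and 0 and 7 for transcription and replication, against 20.3% and 50.4% of all genes. Median lengths of these lists, in that order, were 2196, 1849, 2455 and 1613 bases, against 1057 for the members. The part of length in these differences was not tested. Of 8 tested regulators of nuclear genes of mitochondria, 6 were higher and 0 lower over days 1 to 7 with a median of 0.47. Of these 8, with a median length of 2685 bases, 5 were higher and 0 lower without scaling (limma). Myc, the highest of them, was at 78.7 FPKM on day 0 and on day 7 at 19.0 in BM, 11.2 in C, 37.2 in BC and 45.4 in B. Over days 1 to 7 it differed by 1.82 ± 0.18 (adjusted p = 3.0e-05, edgeR), and Pprc1, the lowest, by 0.06 ± 0.15. On day 7 alone, 6 regulators were higher and 1 lower, against 38.8% and 39.6% of all genes. The lower one was Pprc1, at -0.58 ± 0.14 (adjusted p = 0.00185, edgeR).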

How the data were processed

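RNA was extracted with TRIzol, and poly-A RNA was sequenced on the BGISEQ-500 platform. Per the labels, the reads were processed with Bowtie2 and RSEM against mm10, while the paper's methods name Bowtie 2 and eXpress; versions are not given in the sources used here. The authors deposited, per gene and library, an expected count (an estimated count; 69.5% of the members' values were whole). The authors also deposited an FPKM value, made by dividing by transcript length and library total. Genes absent from a library's file were given a value of 0. Deposited transcript lengths were used as given.

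Expected counts were rounded and tested with edgeR 4.0.16 (TMM, quasi-likelihood, Benjamini-Hochberg over the 11272 genes whose FPKM averaged 1 or more in the 16 cultured libraries, threshold 0.05). Terms were bFGF, CHIR99021 and day, then their interaction, or bFGF within each day. An SE is the log2 difference over the square root of its F. DESeq2, edgeR without TMM, and limma 3.58.1 on log2(FPKM + 1) served as alternatives. Scaled FPKM was multiplied by the median of the 17 library medians over that library's median. edgeR with and without TMM, DESeq2 and unscaled limma were also run on simulated counts of the 16 cultured libraries. There bFGF changed 200 genes by the same amount on every day, far fewer genes than were called in the data. The other settings were not run on simulated counts. GC content and exon overlap came from GENCODE, and promoter windows from RefSeq (GRCm38.p6), the same assembly as mm10.

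Named genes were the 5 highest and 5 lowest by bFGF difference, the 4 highest and 4 lowest by level, the 3 highest and 3 lowest by change between days 1 and 7, the Mrps18 paralogs, the 3 least like the median profile, and the extremes of each other list; Mrpl12, Mrpl13, Mrpl50, Mrps6, Mrps36 and single members of small counts were named after their values were seen. The result of 1 marker gene is not reported here. The members and lists were chosen with earlier results of these data known. Intervals across cultures cannot be given, since each condition was sequenced once.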

Additional observations from a re-analysis of the deposited data

Results flagged for a closer look

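The bFGF difference was not the same on day 1 and day 7 for 49 members, by a test of the contrast itself in the model with a bFGF term per day (edgeR, adjusted p below 0.05). It was higher on day 7 for 39 and lower for 10, against 31.3% and 34.1% of all 11272 genes tested. Counted without its direction, a change was thus about as frequent among all genes, while the shares of each direction differed. Among the genes of at most 1531 bases the shares were 52.7% and 13.4%, beside 32 and 5 of the 58 members in that range. Among the named genes the change on the log2 scale was 1.77 for Mrpl33, 1.61 for Mrpl30 and 1.43 for Mrpl27, and it was -2.04 for Mrps2, -1.98 for Mrpl36 and -1.87 for Mrpl41. The days compared share no library, and each holds 2 libraries with bFGF and 2 without.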

How the results depend on the processing

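The labels give no replicate numbers that could serve as a block. With each pair of the same day and CHIR99021 treatment as a block, 39 members were higher and 4 lower over days 1 to 7. Of the 11272 genes tested, 3443 were higher and 3329 lower in that fit. The median of all genes over days 1 to 7 was -0.00 by edgeR with TMM factors. By limma it was 0.02 after scaling to the median gene and -0.25 without scaling. Over days 1 to 7, 24 members were higher and 21 lower by edgeR with library size only, and 25 and 22 by limma on FPKM without scaling with a pseudocount of 1 or 0.1, with medians of -0.0011, -0.0049 and -0.0092 in that order. Of all 11272 genes, 2245, 2289 and 2280 were higher and 5702, 5686 and 5711 lower in that order, with medians of -0.291, -0.252 and -0.287. On day 1, 1 member was higher with library size only and 1 with a pseudocount of 0.1, against 382 and 315 of all genes. In the same order, 11, 14 and 14 were lower on day 3, against 3590, 3599 and 3449 of all genes. On day 5, 13, 16 and 16 were higher and 35, 37 and 37 lower, with medians of -0.2471, -0.2493 and -0.2692. Of all genes, 2404, 2422 and 2418 were higher and 6389, 6333 and 6327 lower on that day, with medians of -0.462, -0.406 and -0.451. On day 7, 30, 31 and 31 were higher and 26, 28 and 28 lower. Of all genes, 2467, 2491 and 2482 were higher and 6650, 6598 and 6585 lower on that day. For day 7 against day 1, 20, 21 and 21 were higher and 27, 28 and 28 lower, with medians of -0.0031 and -0.0037 for limma. Of all genes, 1996, 2029 and 2043 were higher and 5781, 5788 and 5758 lower, with medians of -0.439 and -0.487 for limma. The sign turned in those 3 settings for Mrpl19 (-0.0334, -0.0256 and -0.0411), Mrpl34 (-0.0511, -0.0544 and -0.0556), Mrps18a (-0.1771, -0.1749 and -0.1798, and -0.0315 in C and BC alone) and Mrps21 (-0.0628, -0.0705 and -0.0714).

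With BM and B alone (edgeR), 0 members were higher and 0 lower, against 1.41% and 2.29% of all genes. An unadjusted p below 0.05 was reached by 27, against 43.2%. With C and BC alone the counts were also 0 and 0, against 0.0266% and 0.106%, and 20 reached that p, against 35.4%. These fits hold 8 libraries. A minimum mean FPKM of 5 gave 11 lower, against 3067 of 8854 genes. Leaving out day 1 gave 11 lower, against 4170 of 11298 genes. The members of at most 1531 bases, a limit chosen after seeing the data, gave 2 lower of 58. Of all genes in that range, 19.0% were lower. By share of summed FPKM the log2 ratio was -0.1437. Leaving out 1 library at a time, where the lone library left is assumed to vary like the others, gave 39 to 46 higher and 4 to 9 lower over days 1 to 7, 0 to 9 higher on day 1 (0 without any single day 1 library, 5 without B and 9 without BC of day 3), 21 to 34 higher and 5 to 8 lower on day 3 (21 without B or without C of day 3), 29 to 35 and 11 to 14 on day 5, 43 to 52 and 7 to 9 on day 7, and 35 to 41 and 9 to 11 for day 7 against day 1. The CHIR99021 median then ran from -0.0008 to 0.0608 and that of the interaction from -0.1154 to 0.0113. The causes of these changes were not tested.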

Other observations

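The genes of the cytosolic ribosome, which translates mRNAs of nuclear genes, were also read from the fit. Of 79 tested genes with symbols of cytosolic ribosomal proteins, 76 were higher and 2 lower with bFGF over days 1 to 7 (edgeR), with a median log2 difference of 1.33, against 0.29 for the mitochondrial ribosomal protein genes. On day 7 the median was 2.40, against 0.61. Without scaling the cytosolic median over days 1 to 7 was 1.04 (limma). These genes have many near-identical copies in the genome, and how reads were shared between copies was not tested. Their transcripts had a median length of 728 bases, shorter than the 1057 bases of the mitochondrial set.

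The length of the transcript and the bFGF difference on day 7 were related across genes, with a Spearman rho of -0.28 over the 11272 genes tested and -0.43 over the 77 members. Genes are not independent replicates, and all share the same 16 libraries. With GC content the rho was -0.05 over the 10833 tested genes with a value and -0.07 over the members. The members higher on day 7 had a median length of 959 bases, those lower 1531 bases and those that passed in neither direction 1354 bases.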
